A study of Homo sapiens with 2 samples.

Results

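Aminoacyl-tRNA synthetases, the enzymes that join each amino acid to its tRNA, were examined in MOLM-13 cells together with the scaffold proteins of the complex that several of them form. MOLM-13 is a human acute myeloid leukemia (AML) line. The members were chosen by gene symbol, as a letter followed by ARS and 1, 2 or 3, with EPRS1, FARSA, FARSB, AIMP1, AIMP2 and EEF1E1 added. This name rule found 41 of the 50868 genes in the expression table: 20 cytosolic synthetase genes, 17 mitochondrial ones, the scaffold genes AIMP1, AIMP2 and EEF1E1, and TARS3, a threonyl-tRNA synthetase gene whose suffix puts it in neither class. All 41 had enough reads to be compared, the lowest being PARS2 with 198 reads over both libraries.

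In the paper, the RNA-seq experiment asked if genes of adhesion and proliferation respond to overexpression of the netrin receptor UNC5B. It had 2 samples. By their labels, the Vector sample is the control and the OE-UNC5B sample the one with the UNC5B construct. According to the methods, UNC5B was delivered by a lentivirus with a CMV promoter, an mCherry marker and a puromycin resistance gene, transduced cells were selected with puromycin, and MOLM-13 cells were grown in RPMI-1640 with fetal bovine serum. Each group was 1 library. Differences were therefore not checked in replicates, and what the construct did cannot be told apart from other differences between the cultures.

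The Vector library held 13715566 reads counted on genes and the OE-UNC5B library 15637137. UNC5B itself had 0 reads in both, which allows a level of up to 0.219 and 0.192 CPM (counts scaled to library size), so the overexpression is not visible and every direction below rests on the label. The second library is therefore called the library labelled OE-UNC5B. Myeloid markers were present: CD33 had 1775 reads in Vector and 2299 under the OE-UNC5B label, and FLT3 had 4067 and 6395. Of 12 myeloid markers, 11 had enough reads to be compared, with a median log2 fold change of 0.16. By at least 1.5-fold, MEIS1 was higher (0.90), and MPO (-1.35) and LYZ (-1.36) were lower. The summed level of the list was 5407 CPM in Vector and 2976 under the OE-UNC5B label, of which LYZ alone gave 51742 of 72946 reads and 23700 of 47321 reads. The epithelial, fibroblast and erythroid lists summed to at most 31 reads in either library, with EPCAM, CDH1 and DCN at 0. Apart from PECAM1, which leukocytes also express, the endothelial genes had at most 5 reads each, and CDH5 and KDR had 0. The lymphoid list summed to 412 and 429 reads, mostly from NKG7. The part of the LYZ and MPO difference in the results below was not tested.

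As background, each synthetase recognises its own amino acid and the matching tRNAs, spends ATP to activate the amino acid and transfers it to the tRNA end, which is the step that sets the meaning of the genetic code. Human cells keep separate nuclear genes for the cytosolic enzymes (suffix 1) and for those imported into mitochondria (suffix 2), where they serve the tRNAs encoded by mitochondrial DNA. GARS1 and KARS1 are exceptions, since each encodes the enzyme of both compartments. When amino acids run short, uncharged tRNA activates the kinase GCN2 (gene EIF2AK4), translation of the transcription factor ATF4 rises, and ATF4 binds to composite C/EBP-ATF sites at genes for amino acid synthesis, transport and tRNA charging. Many cytosolic synthetase genes have been listed as ATF4 targets.

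Read counts were scaled with TMM factors, which correct for library size and composition, and 0.5 reads were added before the log2 fold change of the library labelled OE-UNC5B over Vector was taken. A gene is said to have risen or fallen when this change was at least 1.5-fold, or 0.58 on the log2 scale. Intervals are 95% exact (Clopper-Pearson) intervals of the reads. They cover counting error only and compare these 2 libraries, not the conditions. Of the 15384 genes whose reads in the libraries summed to 10 or more, 12.9% were higher and 12.5% lower by at least 1.5-fold. Among the 8180 genes with at least 500 reads, whose counts are closer to those of the members, these shares were 7.73% and 6.88%.

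Of the 20 cytosolic synthetase genes, 11 rose in the library labelled OE-UNC5B and 0 fell. Of the 17 mitochondrial genes 0 rose and 0 fell, and the same held for the 3 scaffold genes and for TARS3. At a fold of 2, which 5.15% of all tested genes passed in the higher and 4.79% in the lower direction (1.96% and 1.39% of genes with at least 500 reads), 4 cytosolic genes were higher. The median log2 fold change was 0.67 for the cytosolic, -0.08 for the mitochondrial and -0.04 for the scaffold genes, beside -0.01 for all tested genes. Together, the cytosolic synthetase genes took 0.452% of the counted reads in Vector (95% interval 0.449 to 0.456) and 0.675% in the library labelled OE-UNC5B (0.671 to 0.679). The mitochondrial genes took 0.0820% and 0.0792%.

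**Figure D1:**
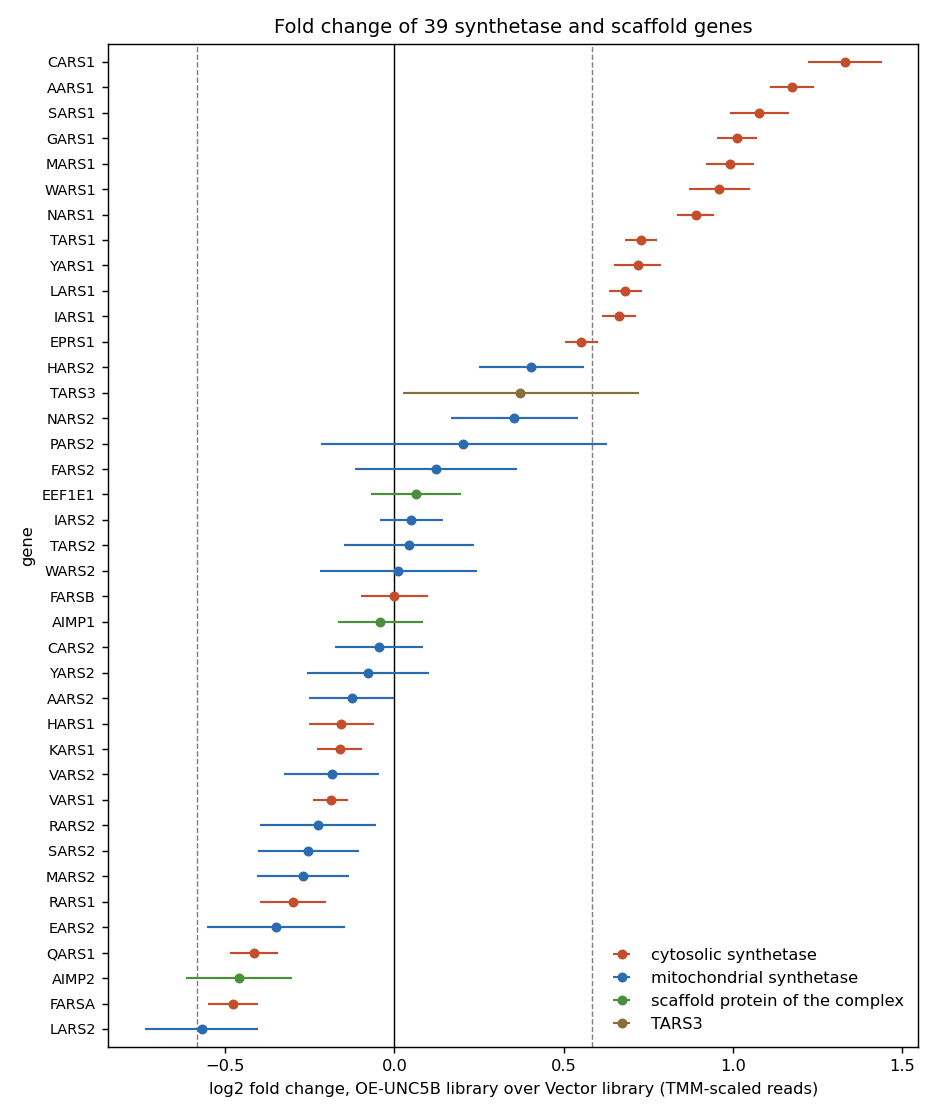
Log2 fold change of the library labelled OE-UNC5B over Vector (x axis) for 39 of the genes (y axis), with 95% intervals from the reads as bars and 1.5-fold marked by dashed lines. The 11 genes past the right dashed line are all cytosolic synthetases, EPRS1 lies just inside it, and no gene lies past the left one.

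The largest rises were in CARS1, AARS1, SARS1 and GARS1. CARS1, which charges cysteine and lies on chromosome 11 from 3000922 to 3057613 (GRCh38, minus strand), had 928 reads in Vector and 2752 under the OE-UNC5B label. This is a log2 fold change of 1.33 (interval 1.22 to 1.44), rank 449 from the highest among the 15384 genes compared. AARS1, the alanyl enzyme, on chromosome 16 from 70252295 to 70289543, went from 2678 to 7130 reads (1.18, interval 1.11 to 1.24). SARS1, which charges serine and also loads serine on the selenocysteine tRNA, on chromosome 1 from 109213918 to 109238169, went from 1499 to 3732 reads (1.08, interval 0.99 to 1.17). GARS1, the glycyl enzyme of both compartments, on chromosome 7 from 30594681 to 30634033, went from 3259 to 7747 reads (1.01, interval 0.95 to 1.07).

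The next group lay just under 2-fold. MARS1, which charges methionine, including that of the initiator tRNA, had 2212 reads in Vector and 5184 under the OE-UNC5B label (log2 fold change 0.99, interval 0.92 to 1.06). WARS1, the tryptophanyl enzyme and a gene known to be induced by interferon, had 1434 and 3289 (0.96, interval 0.87 to 1.05). NARS1, for asparagine, had 3835 and 8377 (0.89, interval 0.83 to 0.95). The smallest rises were in TARS1 for threonine (5325 and 10398 reads, 0.73), YARS1 for tyrosine (2545 and 4939 reads, 0.72), LARS1 for leucine (5344 and 10108 reads, 0.68) and IARS1 for isoleucine (4918 and 9189 reads, 0.66). The lowest interval among these 4 began at 0.61, that of IARS1.

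EPRS1, the bifunctional glutamyl-prolyl enzyme, stood just outside the threshold, with 5426 reads in Vector and 9380 under the OE-UNC5B label and a log2 fold change of 0.55 (interval 0.50 to 0.60). With library totals or DESeq2 size factors it passed 1.5-fold, which makes 12 cytosolic genes. Under these scalings 14.5% and 14.1% of all tested genes were higher by 1.5-fold, beside 12.9% with TMM factors.

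A further 7 cytosolic genes had log2 fold changes at or below 0. FARSA and FARSB encode the paired subunits of phenylalanyl-tRNA synthetase. FARSA had 3183 reads in Vector and 2694 under the OE-UNC5B label, a log2 fold change of -0.48 (interval -0.55 to -0.40), and FARSB had 1542 and 1817, a log2 fold change of 0.00 (-0.10 to 0.10). The log2 difference of FARSA from FARSB, which does not depend on gene length, was -0.48 (interval -0.60 to -0.35). QARS1 for glutamine had 3532 and 3121 reads (-0.42) and RARS1 for arginine had 1731 and 1658 (-0.30). VARS1 for valine (5825 and 6026 reads, -0.19), KARS1 for lysine (3439 and 3622, -0.16) and HARS1 for histidine (1673 and 1769, -0.16) were closer to no change, although each interval lay below 0. Intervals below 0 were found for 26.3% of all tested genes and intervals above 0 for 25.1%, and for 35.9% and 34.2% of genes with at least 500 reads.

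**Figure D2:**
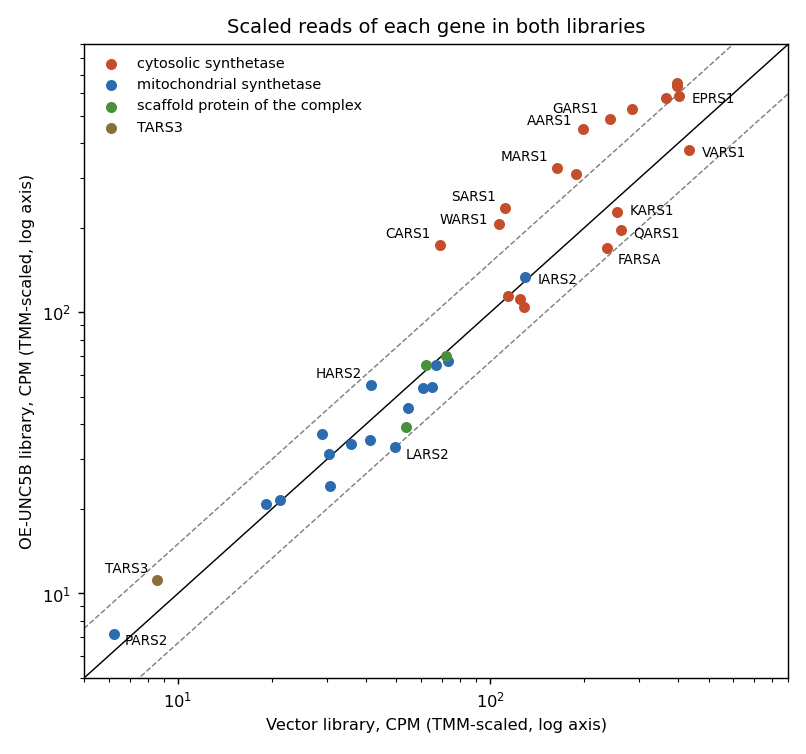
TMM-scaled CPM of the same 39 genes in Vector (x axis, log scale) and in the library labelled OE-UNC5B (y axis, log scale), with equality as a solid line, 1.5-fold as dashed lines and some genes named. The 11 cytosolic genes that rose lie above the upper dashed line, EPRS1 lies just under it and the others lie between the dashed lines, while the mitochondrial genes, down to PARS2, stay between the dashed lines.

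The split among cytosolic genes was set beside 3 properties of the enzymes. Synthetases belong to either of 2 structural classes of catalytic domain, and both classes held rising genes: 6 of the 9 genes of class I alone (CARS1, IARS1, LARS1, MARS1, WARS1 and YARS1) and 5 of the 10 of class II alone (AARS1, GARS1, NARS1, SARS1 and TARS1). EPRS1 carries a domain of each class. The multi-synthetase complex is an assembly of cytosolic synthetases held together by AIMP1, AIMP2 and EEF1E1. Of its 8 synthetase genes, 3 rose (IARS1, LARS1 and MARS1), against 8 of the 12 outside it. Within the complex, log2 fold changes ran from -0.42 for QARS1 to 0.99 for MARS1, with a median of 0.44. The reads of its genes therefore did not change by the same ratio, and protein was not measured. The median outside the complex was 0.81.

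The last property was the listing as ATF4 targets. All 11 rising genes were among the 12 cytosolic genes listed in this way, of which EPRS1 was the remaining member. The 12 had a median of 0.93 and a lowest value of 0.55. The 8 cytosolic genes not listed had a median of -0.18 and held 0 rises. This list was written with earlier results of these data known, and it is not independent evidence of direction.

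The scaffold genes did not follow the rising synthetase genes. AIMP1 had 970 reads in Vector and 1111 under the OE-UNC5B label (log2 fold change -0.04, interval -0.17 to 0.08) and EEF1E1 had 838 and 1032 (0.06, interval -0.07 to 0.20). AIMP2 had 724 and 621 (-0.46, interval -0.62 to -0.30), which did not pass 1.5-fold. Of the exon bases of AIMP2 in GENCODE 44, 29.1% lie in exons of EIF2AK1 on the opposite strand. EIF2AK1 had 2401 and 2420 reads, and without known strand use in the counting its reads and those of AIMP2 cannot be fully separated.

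Among mitochondrial genes the highest log2 fold changes were those of HARS2 and NARS2. HARS2 had 561 reads in Vector and 875 under the OE-UNC5B label (0.40, interval 0.25 to 0.56), and NARS2 had 390 and 588 (0.35, interval 0.17 to 0.54). The lowest was that of LARS2, the leucyl enzyme of mitochondria, with 666 and 529 reads (-0.57, interval -0.74 to -0.40), just inside the threshold. EARS2 had 415 and 384 reads (-0.35). For 7 of the 17 genes the interval held 0, among them IARS2, which had the most reads of the mitochondrial genes (1746 and 2131, log2 fold change 0.05). All 17 had log2 fold changes between -0.57 and 0.40. TARS3, with 116 and 177 reads, had a value of 0.37 with a wide interval of 0.03 to 0.72.

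For 17 amino acids the table holds a cytosolic and a mitochondrial gene, which allows a comparison inside each library that does not depend on the scaling. The ratio of the cytosolic to the mitochondrial reads in the library labelled OE-UNC5B was divided by the same ratio in Vector, over 18 gene pairs, and given with an exact conditional interval of the odds ratio. The median over amino acids was 0.73 on the log2 scale. In 12 pairs the cytosolic gene was relatively higher with an interval above 0, in 2 pairs it was relatively lower with an interval below 0, and in 4 pairs the interval held 0.

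The widest gaps were those of cysteine (CARS1 and CARS2, a log2 difference of 1.38, interval 1.21 to 1.55), serine (1.33, interval 1.16 to 1.51) and alanine (interval 1.16 to 1.44). Methionine and leucine had gaps of 1.26 and 1.25. In these, as in cysteine, serine, alanine and tyrosine, the mitochondrial gene had a log2 fold change below 0 while the cytosolic gene rose. The intervals of CARS2 and YARS2 held 0. Asparagine had a smaller gap (0.53, interval 0.34 to 0.73), because NARS2 also had a value above 0. The reverse order was seen for histidine, with HARS1 below HARS2 by a log2 difference of -0.56 (interval -0.74 to -0.38), and for FARSA against FARS2 (-0.60, interval -0.85 to -0.35). Valine showed a difference of 0.00 (interval -0.15 to 0.15) and arginine one of -0.07 (-0.27 to 0.13). Glycine and lysine have a single gene for both compartments, and these genes differed: GARS1 exceeded KARS1 by a log2 difference of 1.17 (interval 1.08 to 1.26).

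**Figure D3:**
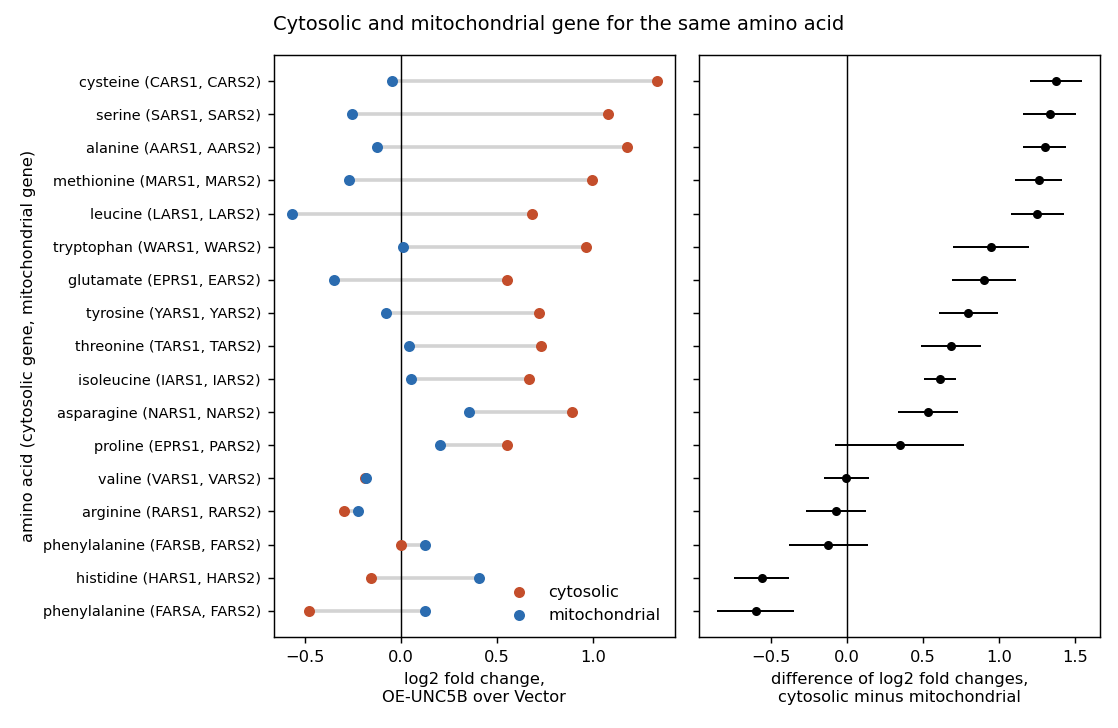
Left, log2 fold change (x axis) of the cytosolic and the mitochondrial gene for 17 pairs, by amino acid (y axis), joined by a grey line. Right, the difference of these log2 fold changes with its 95% interval from the reads. The cytosolic gene stands to the right in the 12 upper pairs, and the order is reversed with an interval off 0 for histidine and for FARSA.

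Levels between genes were compared with the deposited FPKM, which are scaled to gene length. Cytosolic genes had a median FPKM of 31.3 in Vector, with a range from 4.58 (CARS1) to 59.3 (EPRS1), and mitochondrial genes a median of 5.97, with a range from 2.23 (EARS2) to 27.4 (IARS2). In the library labelled OE-UNC5B the medians were 35.2 and 7.27. Summed FPKM went from 547 in Vector to 801 for the cytosolic genes and from 158 to 152 for the mitochondrial genes. EPRS1 had the highest FPKM of the 41 genes in both libraries. AARS1 moved from rank 8 to rank 2 (33.6 and 78.4 FPKM) and GARS1 from rank 5 to rank 3, whereas VARS1 moved from rank 2 to rank 9 (41.6 and 37.7 FPKM) and FARSA from rank 3 to rank 12. CARS1 was the lowest cytosolic gene in Vector with 4.58 FPKM and had 11.9 FPKM in the library labelled OE-UNC5B. These orders depend on the gene lengths behind the FPKM. The counts and FPKM imply 14780 bases for CARS1 and 23059 for CARS2, beside 10037 and 10436 exon bases in GENCODE 44, and 2347 for PARS2, beside 2356. Gaps in the other direction were larger: 6481 bases for GARS1 beside 17366, and 2816 for RARS2 beside 17631.

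The windows around annotated transcription starts were read next. RefSeq promoter windows (GRCh38.p14, 250 bases before to 50 after a start) were matched by symbol for 33 of the 41 genes. No window was found for the others, among them YARS1, LARS1, TARS3, AARS2, VARS1 and VARS2. The rising genes YARS1 and LARS1 are therefore not in the motif counts. Composite ATF4 sites share the letters TGATGNAA, where N is any base. These were searched on both strands, and 3.62% of all 35116 windows and 4.46% of all genes with a window held a match.

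Of the 9 rising cytosolic genes with a window, 7 held TGATGNAA, and of the 7 other cytosolic genes with a window, 0 did. Of 14 mitochondrial genes 1 did, YARS2, and of the 3 scaffold genes 0 did. SARS1 and WARS1 rose without a match in their windows. In 6 of the 7 rising genes the letters were TGATGCAA, which 0.866% of all windows hold, and in GARS1 the variable base differed. The 8 matches are shown with 10 bases on either side, 5′ to 3′ on the strand of the gene, to show where the letters lie in the members that hold them, YARS2 (log2 fold change -0.08) included. Capitals mark the match, which in 6 genes reads as the reverse complement TTGCATCA or TTTCATCA.

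CARS1, chr11:3057408-3057435, minus strand: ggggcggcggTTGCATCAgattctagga

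AARS1, chr16:70289676-70289703, minus strand: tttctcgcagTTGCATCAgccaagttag

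GARS1, chr7:30594835-30594862, plus strand: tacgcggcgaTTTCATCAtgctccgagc

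MARS1, chr12:57488054-57488081, plus strand: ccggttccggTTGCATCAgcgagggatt

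NARS1, chr18:57621805-57621832, minus strand: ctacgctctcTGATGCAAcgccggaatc

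TARS1, chr5:33440957-33440984, plus strand: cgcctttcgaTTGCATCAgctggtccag

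IARS1, chr9:92293693-92293720, minus strand: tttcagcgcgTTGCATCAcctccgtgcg

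YARS2, chr12:32756077-32756104, minus strand: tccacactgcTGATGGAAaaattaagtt

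In 5 of the 7 rising genes the first base of the match lay within 14 bases of an annotated start. Counted with 0 as the first transcribed base, it was at -2 in CARS1, -4 in MARS1, -13 in IARS1, 2 in TARS1 and 14 in NARS1. It was at -33 in GARS1, at -187 in AARS1 and at -197 in YARS2. These distances hold for the RefSeq start of each window. In GENCODE 44 the matches of all 7 rising genes lie inside the bounds of the annotated gene, which has other starts further upstream, and the match in YARS2 lies outside them. The match describes letters only, and binding was not measured.

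**Figure D4:**
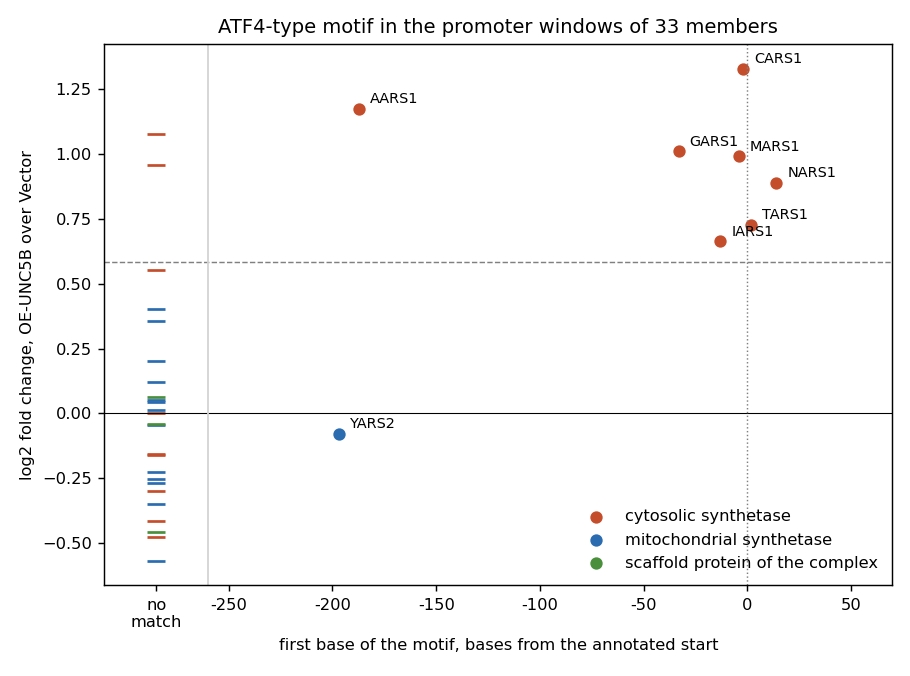
Position of the first base of TGATGNAA from the annotated start (x axis, bases) against log2 fold change (y axis) for the 33 members with a promoter window, with dashes at the left for members without a match and 1.5-fold as a dashed line. The 7 matches in rising cytosolic genes all lie above the dashed line, 5 of them close to the start, and the match in YARS2 lies below 0.

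The whole windows of the 3 genes with a match that rose most are shown beside that of LARS2, the member with the lowest fold change, which holds no match and is in lower case throughout.

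CARS1, chr11:3057374-3057673, minus strand: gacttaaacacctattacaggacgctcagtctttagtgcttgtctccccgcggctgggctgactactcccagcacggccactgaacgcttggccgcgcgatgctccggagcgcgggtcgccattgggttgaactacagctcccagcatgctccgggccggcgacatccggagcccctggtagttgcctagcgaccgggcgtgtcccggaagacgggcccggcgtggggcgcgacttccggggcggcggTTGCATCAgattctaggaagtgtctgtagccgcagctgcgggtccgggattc

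AARS1, chr16:70289457-70289756, minus strand: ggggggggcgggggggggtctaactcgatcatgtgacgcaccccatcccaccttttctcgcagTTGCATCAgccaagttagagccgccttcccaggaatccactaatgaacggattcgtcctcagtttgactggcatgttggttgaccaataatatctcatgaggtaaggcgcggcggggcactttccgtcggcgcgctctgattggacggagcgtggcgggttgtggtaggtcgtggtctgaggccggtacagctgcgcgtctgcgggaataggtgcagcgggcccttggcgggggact

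GARS1, chr7:30594628-30594927, plus strand: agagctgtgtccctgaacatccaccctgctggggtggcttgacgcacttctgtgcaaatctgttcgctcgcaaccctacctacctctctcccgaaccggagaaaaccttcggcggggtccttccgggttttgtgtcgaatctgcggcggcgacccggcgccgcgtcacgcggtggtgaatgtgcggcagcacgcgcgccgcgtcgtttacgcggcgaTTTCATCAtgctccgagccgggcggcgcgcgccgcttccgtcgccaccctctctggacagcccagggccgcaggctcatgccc

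LARS2, chr3:45388326-45388625, plus strand: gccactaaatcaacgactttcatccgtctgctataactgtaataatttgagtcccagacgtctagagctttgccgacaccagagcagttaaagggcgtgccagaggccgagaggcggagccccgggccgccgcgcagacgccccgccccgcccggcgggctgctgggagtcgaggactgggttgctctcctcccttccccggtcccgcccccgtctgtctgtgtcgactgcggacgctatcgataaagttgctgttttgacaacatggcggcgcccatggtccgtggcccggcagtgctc

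Other motifs were searched after the values were seen. CACGTG, the E-box bound by MYC, was found in 1 of the 9 rising genes (IARS1) and 0 of the 7 other cytosolic genes. It was also found in 3 of the 14 mitochondrial genes, 1 of the 3 scaffold genes and 8.77% of all genes with a window. The core of the interferon response element, a pair of GAAA blocks with 2 bases between them, was found in WARS1 and EARS2 and in 4.38% of all genes. The WARS1 match, shown because this rising gene lacks the other motif, is at -55 from a start.

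WARS1, chr14:100375383-100375412, minus strand: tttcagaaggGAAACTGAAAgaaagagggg

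CCAAT was found in 6 of the 9 rising and 1 of the 7 other cytosolic genes. It was also in 9 of the 14 mitochondrial and 3 of the 3 scaffold genes, beside 39.7% of all genes. GGGCGG was found in 8 of 9, 4 of 7, 11 of 14 and 2 of 3, beside 48.3% of all genes. Among the other tested genes in the table, 21.8% of the 261 with TGATGNAA in a window rose by 1.5-fold, against 10.5% of the 9707 without it. For TGATGCAA these shares were 30.9% of 68 genes and 10.6% of 9900.

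Some members share a start region or exons with a neighbour, and the values of both are given. AARS1 and DDX19B, an RNA helicase gene, run head to head with 43 shared exon bases. DDX19B had 238 reads in Vector and 294 under the OE-UNC5B label (log2 fold change 0.07, interval -0.18 to 0.32) while AARS1 rose. HARS1 and HARS2 also run head to head, with 108 shared exon bases, and had values of -0.16 and 0.40. GARS1-DT, the divergent RNA beside GARS1, had 542 and 732 reads (0.20, interval 0.03 to 0.36). MARS1 shares exon bases with 2 genes on the opposite strand. It shares 519 with ARHGAP9, which had 617 and 821 reads, and 355 with DDIT3, which encodes the stress factor CHOP and had 82 and 164 reads. The shared bases are 5.05% of the MARS1 exons and 27.2% of the DDIT3 exons in the second case, and MARS1 itself had 2212 and 5184 reads. The 17 pseudogenes named after members had 1 read in Vector and 4 under the OE-UNC5B label in all, so few reads were placed on these copies.

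The remaining steps of tRNA charging were followed with gene lists, whose counts stand beside 12.9% of all tested genes higher and 12.5% lower by at least 1.5-fold. Of the 10 genes for sensing uncharged tRNA and its output, 6 rose and 0 fell, with a median log2 fold change of 0.80. ATF4 had 4993 reads in Vector and 10509 under the OE-UNC5B label (0.84, interval 0.79 to 0.89). The genes past 2-fold were ASNS, which makes asparagine (1.91), CHAC1, which breaks down glutathione (1.70), SESN2, a leucine sensor upstream of mTORC1 (1.61), and TRIB3, a pseudokinase induced by ATF4 (1.58). DDIT3 was past 1.5-fold with 0.76, but it shares exon bases with MARS1 as given above, and without known strand use its reads cannot be fully separated from those of MARS1. The sensor kinase gene EIF2AK4 and its activator GCN1 had values of 0.30 and 0.17, under 1.5-fold. IMPACT (0.40) and PPP1R15A (0.30) of the same list were also under it. Uncharged tRNA was not measured, and what led to the rises in this list was not tested.

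Of 29 genes for tRNA end processing, splicing and export, 1 rose and 5 fell. Of all tested genes 12.9% were higher and 12.5% lower. Among genes with at least 500 reads these shares were 7.73% and 6.88%. The 1 that rose, named after its values were seen like the other genes of this paragraph, was XPOT, which exports tRNA from the nucleus, with 4016 reads in Vector and 8671 under the OE-UNC5B label (0.87, interval 0.82 to 0.93). The 5 that fell had log2 fold changes from -0.91 (POP4) to -0.59 (ELAC2). They were POP4, RPP14 and RPP25 of the RNase P and MRP complexes, ELAC2, which trims tRNA ends, and TRMT10C, which acts in mitochondria. In the selenocysteine pathway, which begins with the serine loaded by SARS1, 3 of 6 genes rose, beside 12.9% of all tested genes. The others were SEPHS1 (-0.21) and SEPHS2 (0.12), which make the selenium donor, and EEFSEC (-0.22), the elongation factor for selenocysteine. PSTK, which phosphorylates this serine, had 83 and 154 reads (0.65, interval 0.26 to 1.06). SEPSECS, which converts it to selenocysteine, had 331 and 702 (0.85, interval 0.66 to 1.04). SECISBP2, which guides selenocysteine insertion at the ribosome, had 654 and 1459 (0.92, interval 0.79 to 1.06).

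In the lists for other steps, the counts are read against the same 12.9% higher and 12.5% lower. Of 6 mitochondrial charging partners, which include the subunits that convert mischarged glutamyl-tRNA to glutaminyl-tRNA, 0 rose and 0 fell (median -0.23). The same held for 4 proofreading genes (median -0.12). Of 25 genes for tRNA transcription by RNA polymerase III, 0 rose and POLR3K fell (-0.61). Of 60 tRNA modification genes, TRMT13 rose (0.63) and ADAT3 (-0.75) and LAGE3 (-0.65) fell. Of 5 genes that deliver charged tRNA to the ribosome, EEF1A2 fell (-0.77), and EEF1A1, by far the most abundant, had 67944 and 75396 reads (-0.09). Each of these 5 medians lay between -0.23 and 0.03.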

How the data were processed

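Total RNA of MOLM-13 cells was made into 1 library per group with the VAHTS Universal V6 kit and sequenced on an Illumina HiSeq platform. The submitters' processing notes name bcl2fastq 2.19, HISAT2 2.0.4, StringTie 1.3.0 and the build GRCh38. Which annotation release was counted, and whether by strand, is not given in the sources used here. The table deposited by the authors holds unnormalized read counts for each gene, and FPKM, scaled by the authors to gene length and to the reads on genes, stand beside them.

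The samples were grouped by their genotype labels. TMM factors over all genes came from edgeR 4.0.16 in R 4.3.3. Genes whose reads summed to 10 or more were compared, after adding 0.5 reads. Intervals are 95% exact intervals of the reads (scipy 1.17.1). With 1 library per group, edgeR's quasi-likelihood test could not be fitted, and no p-value is given. The fold change and interval calculation was tested on simulated data. Depth was 13715566 and 15637137 reads, which limits the precision of low genes.

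Values of 2 members and 1 marker gene, and a grouping of the enzymes by side chain made after the values were seen, are not reported here, and counts and medians over sets include these genes. The members and gene lists were chosen with earlier results of these data known. The naming rule covers UNC5B, the members, list genes past 2-fold, and promoters of the 3 largest rises with TGATGNAA and of the member with the lowest fold change. Exon overlaps came from GENCODE 44, in which 49659 of the 50868 identifiers were found. Among the alternatives, the scale was set from library totals, from DESeq2 1.42.0 size factors or from protein-coding genes, FPKM with 0.1 or 1 added replaced the counts, and 2 reads were added instead. The minimum was also dropped or set to 50 reads, and a fold of 2 was required.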

Additional observations from a re-analysis of the deposited data

How the results depend on the processing

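The 11 rising cytosolic genes kept a change of at least 1.5-fold in the same direction under all 8 alternatives that keep this fold. With a fold of 2 in its place, 4 cytosolic genes were higher, by construction. EPRS1 was the single member that crossed 1.5-fold: 12 cytosolic genes were higher with library totals, DESeq2 size factors and FPKM with 0.1 or 1 added. In the same order, 14.52%, 14.11%, 11.95% and 4.836% of all tested genes were higher, against 12.93% in the main setting. AIMP1, CARS2 and FARSB, all near 0, changed sign between alternatives. The median of the cytosolic genes ran from 0.67 to 0.72, that of the mitochondrial genes from -0.08 to -0.03, and that of the scaffold genes from -0.04 to 0.01. No paired analysis was possible because each group is 1 library, and for that reason a replicate could not be left out. Depth limited PARS2 and TARS3, whose intervals were the widest of the members.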
